A study of Homo sapiens with 16 samples.

Results

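The 9 genes described here, RBM20, RBM24, RBFOX2, MBNL1, MBNL2, CELF1, CELF2, QKI and PTBP1, encode RNA-binding proteins that choose exons in heart muscle transcripts. They were taken by symbol from a table of raw read counts for 59385 genes, in which all 9 were found. RNA-Seq was performed on 16 libraries of beating cardiomyocytes differentiated from WTC-11 (hiPSC-CMs), a human induced pluripotent stem cell line, at day 15 to 35. The libraries fall into 4 groups of 4 and tested what a gain or a loss of the long noncoding RNA LINC00881 does to the cardiomyocyte transcriptome. In the overexpression experiment, hiPSC-CMs were transfected by lipofection with a LINC00881 plasmid or with a control plasmid for bacterial alkaline phosphatase. In the knockdown experiment, they were transfected by lipofection with an LNA GapmeR against LINC00881 (a short antisense strand with locked ends, through which RNase H cuts the bound RNA) or with a scrambled oligonucleotide. All groups come from 1 cell line, so the replicates measure the spread between libraries of the same line and not between people. The labels do not say whether replicates were separate differentiations or cultures, so the spread may be technical.

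Each of these proteins binds short sequence elements in or beside an exon and thereby favors or blocks its use. RBM20, found mainly in striated muscle, represses exons of titin and of transcripts for calcium handling, and its mutation causes dilated cardiomyopathy. RBM24 favors inclusion of muscle exons, RBFOX2 binds UGCAUG elements, and QKI, a protein of the STAR family, binds ACUAA elements and also acts on mRNA stability. The muscleblind proteins MBNL1 and MBNL2 promote adult splicing patterns, and CELF1 and CELF2 oppose them at many exons. PTBP1 binds pyrimidine-rich tracts and represses many tissue-specific exons. Gene counts give the amount of each RNA, and neither exon use nor protein was measured here.

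LINC00881 itself moved as the labels state. It stood at 444 ± 29.4 CPM with LINC00881 plasmid and at 105 ± 25.5 CPM with control plasmid (SD, n = 4 libraries each), where CPM are counts relative to the library's total, with totals scaled by the trimmed mean of M values (TMM) within each experiment. It stood at 19.9 ± 6.42 CPM with LINC00881 GapmeR and at 96.2 ± 48.6 CPM with scrambled oligonucleotide (SD, n = 4 libraries each). Total counts ranged between 11272633 and 16415025 with LINC00881 plasmid, between 9833533 and 13493729 with control plasmid, between 26979162 and 37332620 with LINC00881 GapmeR and between 29279325 and 37033017 with scrambled oligonucleotide. Tube numbers in the labels split the knockdown libraries into 2 sets of 4, with replicates 1 and 2 of each group in the first and replicates 3 and 4 in the second, and the leading principal component of these libraries, with 33.5% of the variance, separated the sets and not the treatments. In the overexpression experiment replicate 3 of control plasmid stood apart on the leading component. All 9 cardiomyocyte markers checked (TNNT2, MYH6, MYH7, ACTN2, NKX2-5, TNNI1, TNNI3, MYL7 and MYL2) were present in every group. Their summed level was 20793 to 22604 CPM with LINC00881 plasmid against 17622 to 21669 CPM with control plasmid, and 11703 to 16578 CPM with LINC00881 GapmeR against 15756 to 19618 CPM with scrambled oligonucleotide.

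The promoter windows of PTBP1, CELF2 and RBM24 are printed here because these genes gave the differences described below, with knockdown or between the sets of knockdown libraries. Each window runs 250 bases before to 50 bases after a RefSeq start site on GRCh38.p14, 5′ to 3′ on the strand of the gene. Of the 2 windows listed for PTBP1, the 10 for CELF2 and the 1 for RBM24, the window nearest the GENCODE start of the gene was taken. Capitals mark the CCAAT box (CCAAT) and the GC box (GGGCGG), searched on both strands together with the TATA box (TATAAA).
PTBP1, chr19:797202-797501, plus strand: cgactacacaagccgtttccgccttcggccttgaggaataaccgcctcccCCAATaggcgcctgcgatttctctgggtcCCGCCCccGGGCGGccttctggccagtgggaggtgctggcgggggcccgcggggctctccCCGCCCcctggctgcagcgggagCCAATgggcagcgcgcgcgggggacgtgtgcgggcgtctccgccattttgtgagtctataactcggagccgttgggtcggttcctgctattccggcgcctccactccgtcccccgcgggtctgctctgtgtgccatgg
CELF2, chr10:10798475-10798774, plus strand: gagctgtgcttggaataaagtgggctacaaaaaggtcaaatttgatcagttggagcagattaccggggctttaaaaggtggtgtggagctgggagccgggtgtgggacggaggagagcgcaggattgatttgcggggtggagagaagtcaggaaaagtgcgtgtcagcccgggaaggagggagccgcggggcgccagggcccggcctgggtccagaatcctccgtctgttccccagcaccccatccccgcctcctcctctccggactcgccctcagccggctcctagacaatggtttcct
RBM24, chr6:17281814-17282113, plus strand: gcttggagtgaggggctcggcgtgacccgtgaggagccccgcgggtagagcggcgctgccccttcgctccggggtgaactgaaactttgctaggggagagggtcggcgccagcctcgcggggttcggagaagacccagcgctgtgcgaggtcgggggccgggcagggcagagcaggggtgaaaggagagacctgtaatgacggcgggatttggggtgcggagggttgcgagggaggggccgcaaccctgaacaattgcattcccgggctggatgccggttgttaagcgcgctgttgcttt
The PTBP1 window held 31 CG dinucleotides, 2 CCAAT boxes and 3 GC boxes, the CELF2 window 16 CG dinucleotides and the RBM24 window 27, and neither of the other two held any of the 3 motifs. Across all 35116 RefSeq windows the median was 14 CG dinucleotides, and 34.6% held a CCAAT box, 45.0% a GC box and 11.5% a TATA box. Such matches describe the sequence only.

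None of the 9 regulators passed the unadjusted cutoff (p under 0.05) with LINC00881 overexpression. The largest shifts were in the muscleblind genes, both toward lower levels with LINC00881 plasmid, and every log2 fold change among the 9 lay between -0.19 and 0.04. The median of the 9 was -0.08, beside 0.00 over the 14355 genes tested. Among all genes tested, 12.1% passed the same cutoff, 5.87% as higher and 6.23% as lower. The count of 0 of 9 came from edgeR's quasi-likelihood test and was also 0 with DESeq2 and with limma-voom, and no member passed after adjustment over all genes with any of them. The level of an RNA in a culture cannot tell fewer cells that make it from less of it per cell.

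MBNL2 came closest to the cutoff. It stood at 29.1, 29.1, 31.6 and 33.0 CPM with LINC00881 plasmid, against 33.3, 32.5, 42.1 and 32.8 CPM with control plasmid. The groups overlapped, because the highest LINC00881 plasmid library lay above both of the lowest controls, and the control at 42.1 CPM was replicate 3, the library that stood apart. The log2 fold change was -0.19 (SE 0.09, unadjusted p = 0.051, edgeR). MBNL2 lies on chromosome 13 from 97221434 to 97394120 (GRCh38) on the plus strand. Its paralog MBNL1 stood at 80.5, 81.5, 78.6 and 88.3 CPM with LINC00881 plasmid, against 89.6, 83.5, 107 and 85.7 CPM with control plasmid. Replicate 3 of control plasmid was again the highest, and the log2 fold change was -0.15 (SE 0.08, unadjusted p = 0.066). MBNL1 lies on chromosome 3 from 152243828 to 152465780 on the plus strand, the chromosome that also carries LINC00881 (157089881 to 157101135). Of its exonic bases 15.6% overlap genes on the other strand, MBNL1-AS1 among them, and since reads were counted without strand its counts may hold reads of those genes.

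Without replicate 2 of control plasmid, the control with the lowest CELF1, CELF2 and MBNL1, 4 members (CELF1, CELF2, MBNL1 and MBNL2) passed the unadjusted cutoff as lower with overexpression. Without replicate 3 of control plasmid none did, and the log2 fold change of MBNL2 was then -0.10. Over all genes 2611 of 14442 passed without replicate 2 and 1067 of 14574 without replicate 3, beside 1737 of 14355 with every library kept. Without replicate 1 of control plasmid MBNL2 passed alone, and without replicate 4 of either group MBNL1 and MBNL2 passed.

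The CELF genes, QKI, RBFOX2, the RBM genes and PTBP1 differed less with overexpression. CELF1 had 224, 240, 224 and 248 CPM with LINC00881 plasmid, against 247, 220, 269 and 251 CPM with control plasmid. CELF2 had 289, 310, 304 and 338 CPM with LINC00881 plasmid, against 335, 276, 377 and 335 CPM with control plasmid. In both CELF genes the control libraries enclosed the LINC00881 plasmid libraries, and the log2 fold changes were -0.08 (SE 0.07) and -0.09 (SE 0.08). QKI, the member with the highest CPM in this experiment, had 639, 742, 675 and 779 CPM with LINC00881 plasmid, against 702, 713, 850 and 707 CPM with control plasmid. Its groups overlapped, and the log2 fold change was -0.07 (SE 0.08). RBFOX2 had 396 to 412 CPM with LINC00881 plasmid and 410 to 431 CPM with control plasmid, a log2 fold change of -0.05 (SE 0.06).

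RBM24 was the only member whose overexpression groups did not overlap. It stood at 263, 271, 255 and 270 CPM with LINC00881 plasmid, against 276, 282, 299 and 281 CPM with control plasmid. All 4 LINC00881 plasmid libraries were lower, by a small margin, and the difference did not pass the cutoff (log2 fold change -0.10, SE 0.06, unadjusted p = 0.109, edgeR). Among all genes tested, 7.25% had groups that did not overlap, in either direction. RBM20 had 352, 342, 346 and 370 CPM with LINC00881 plasmid, against 365, 321, 359 and 377 CPM with control plasmid, a log2 fold change of -0.01 (SE 0.07). PTBP1 had 45.6, 44.7, 41.3 and 42.4 CPM with LINC00881 plasmid, against 45.3, 39.3, 39.2 and 45.3 CPM with control plasmid, a log2 fold change of 0.04 (SE 0.08).

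**Figure D1:**
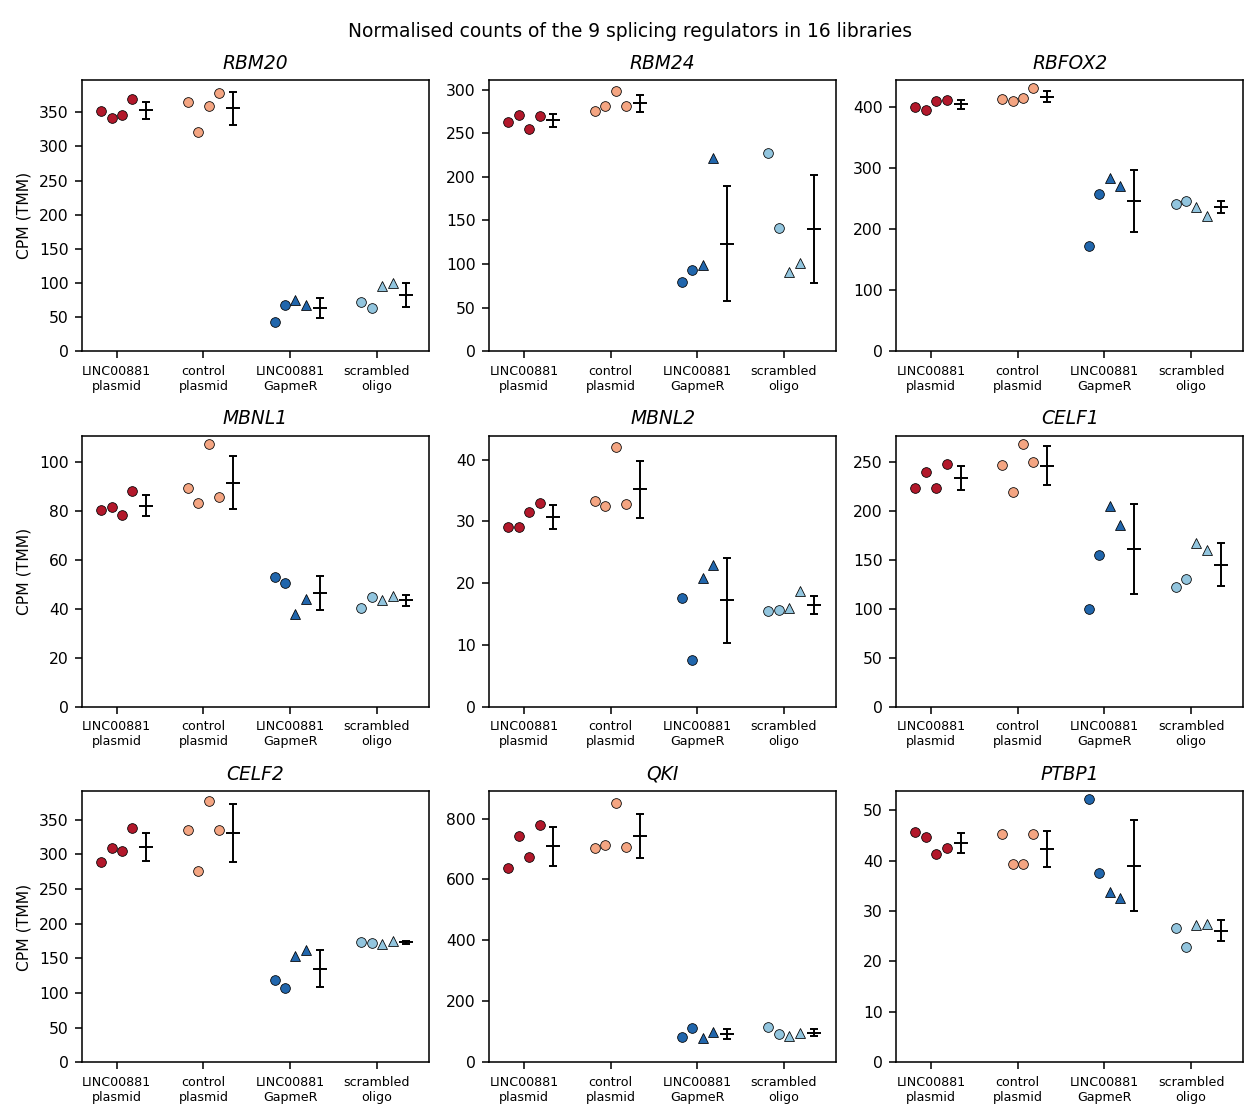
Normalised counts (CPM, vertical axis, starting at 0) of the 9 splicing regulators, 1 panel per gene, with 1 symbol per library. Circles are overexpression libraries and the first set of knockdown libraries, triangles the second set, and black marks give the mean ± SD of the 4 libraries. PTBP1 in the 4 LINC00881 GapmeR libraries (32.6 to 52.2 CPM) sits above all scrambled oligonucleotide libraries (23.0 to 27.5 CPM), and CELF2 (107 to 162 CPM) below them (171 to 175 CPM).

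With LINC00881 knockdown, PTBP1 rose and CELF2 fell at the unadjusted cutoff, and the other 7 members did not pass it. PTBP1, the general repressor of tissue-specific exons, was 1.496-fold higher, and CELF2 stood at 0.78 of its control level. The 1 higher call stands beside 4.2% of all 18127 genes tested, and the 1 lower call beside 4.15%. No member passed after adjustment over all genes with edgeR, DESeq2 or limma-voom in the comparison of the 8 knockdown libraries. The median log2 fold change of the 9 was 0.06, beside -0.01 over all genes tested. Of the 9 cardiomyocyte markers, 4 were lower and none was higher with knockdown at the same cutoff. With overexpression 3 were higher and 1 was lower. The study named MYH6 and TNNI1, lower with knockdown and higher with overexpression, as targets of LINC00881 from these libraries. The markers are therefore no independent measure of how many cardiomyocytes a culture held, and their part in these values was not tested.

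PTBP1 stood at 52.2, 37.5, 33.7 and 32.6 CPM with LINC00881 GapmeR, against 26.6, 23.0, 27.2 and 27.5 CPM with scrambled oligonucleotide. Every GapmeR library was above every control library, and replicate 1 of the GapmeR was the highest. The log2 fold change was 0.58 (SE 0.18, unadjusted p = 0.011, adjusted p = 0.473, edgeR). Without replicate 1 of the GapmeR it was 0.40. In the second set alone it was 0.30 (SE 0.13) and in the first 0.86 (SE 0.25), each past the unadjusted cutoff. Within the sets 5034 of 19258 genes passed that cutoff in the second and 3376 of 17992 in the first. The difference between the sets, second minus first, did not pass it (-0.58, SE 0.27, unadjusted p = 0.066, edgeR). When all 16 libraries shared 1 estimate of the spread, the knockdown difference passed after adjustment as well (log2 fold change 0.60, adjusted p = 0.031, edgeR). The overexpression libraries, which varied less, entered that estimate. With it 555 of 17782 genes passed after adjustment with knockdown, beside 0 of 18127 in the fit of the knockdown libraries alone. PTBP1 lies on chromosome 19 from 797075 to 812327 on the plus strand, and 0.901% of its exonic bases overlap a microRNA gene, MIR4745.

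CELF2, which favors fetal splicing patterns together with CELF1, stood at 119, 107, 153 and 162 CPM with LINC00881 GapmeR, against 174, 172, 171 and 175 CPM with scrambled oligonucleotide. The 4 controls were nearly equal and all GapmeR libraries were below them, with replicates 1 and 2 the lowest. The log2 fold change was -0.36 (SE 0.14, unadjusted p = 0.035, adjusted p = 0.560, edgeR). Non-overlapping groups, as in PTBP1 and CELF2, were seen in 6.44% of all genes tested with knockdown. The call for CELF2 was lost with limma-voom (-0.21), with an offset on gene length (-0.18) or on length and GC content (-0.16), without any 1 of the 4 scrambled oligonucleotide libraries (p between 0.061 and 0.070) and without replicate 1 (-0.30) or 2 (-0.26) of the GapmeR. The call was also absent within the second set (-0.11, SE 0.08, unadjusted p = 0.180, edgeR) and present within the first (-0.61, SE 0.15). CELF2 lies on chromosome 10 from 10798397 to 11336675 on the plus strand, and no other annotated gene overlaps its exons.

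RBM20, the regulator of titin, stood at 42.3, 68.2, 74.8 and 67.1 CPM with LINC00881 GapmeR, against 71.7, 63.5, 95.4 and 100 CPM with scrambled oligonucleotide. The groups overlapped, since the controls of the first set (63.5 and 71.7 CPM) lay within the range of the GapmeR libraries. In that set replicate 2 of the GapmeR (68.2 CPM) lay above replicate 2 of scrambled oligonucleotide (63.5 CPM). In the second set both GapmeR libraries were below both controls. The log2 fold change was -0.39 (SE 0.21, unadjusted p = 0.100). It was -0.44 (SE 0.10) in the second set, where it passed after adjustment (adjusted p = 0.029, edgeR), and -0.29 (SE 0.27) in the first. With a term for the set the value was -0.38 and passed the unadjusted cutoff, and it also passed with all 16 libraries in 1 fit, again at -0.38. RBM20 lies on chromosome 10 from 110644397 to 110839469 on the plus strand.

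The other members overlapped between the knockdown groups. CELF1 had 100, 155, 205 and 186 CPM with LINC00881 GapmeR, against 123, 131, 168 and 160 CPM with scrambled oligonucleotide, a log2 fold change of 0.15 (SE 0.22). The GapmeR libraries of CELF1 covered a wider range than the controls, at both ends. In the second set CELF1 was higher with the GapmeR at the unadjusted cutoff (0.28, SE 0.08, adjusted p = 0.062, edgeR), and in the first set the value was 0.01 (SE 0.24). RBFOX2 had 172, 257, 283 and 271 CPM with LINC00881 GapmeR, against 241, 245, 236 and 222 CPM with scrambled oligonucleotide, a log2 fold change of 0.06 (SE 0.15). Only its replicate 1 lay below the controls, and in the second set RBFOX2 was higher with the GapmeR (0.30, SE 0.07, adjusted p = 0.035, edgeR). Within that set 5034 of 19258 genes passed unadjusted and 2050 after adjustment. MBNL1 had 53.2, 50.6, 37.9 and 44.2 CPM with LINC00881 GapmeR, against 40.5, 44.8, 43.5 and 45.4 CPM with scrambled oligonucleotide, a log2 fold change of 0.09 (SE 0.15). MBNL2, the least abundant member in this experiment, had 17.7, 7.51, 20.8 and 22.9 CPM with LINC00881 GapmeR, against 15.6, 15.7, 16.0 and 18.7 CPM with scrambled oligonucleotide. Replicate 2 of the GapmeR, with 244 reads, was below all controls and 2 of the others were above all of them, for a log2 fold change of 0.06 (SE 0.31). QKI had 82.1, 112, 79.5 and 100 CPM with LINC00881 GapmeR, against 115, 93.0, 87.2 and 97.0 CPM with scrambled oligonucleotide, a log2 fold change of -0.07 (SE 0.15). With an offset on gene length the value for QKI, whose annotated exons span 17368 bases, was 0.21.

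**Figure D2:**
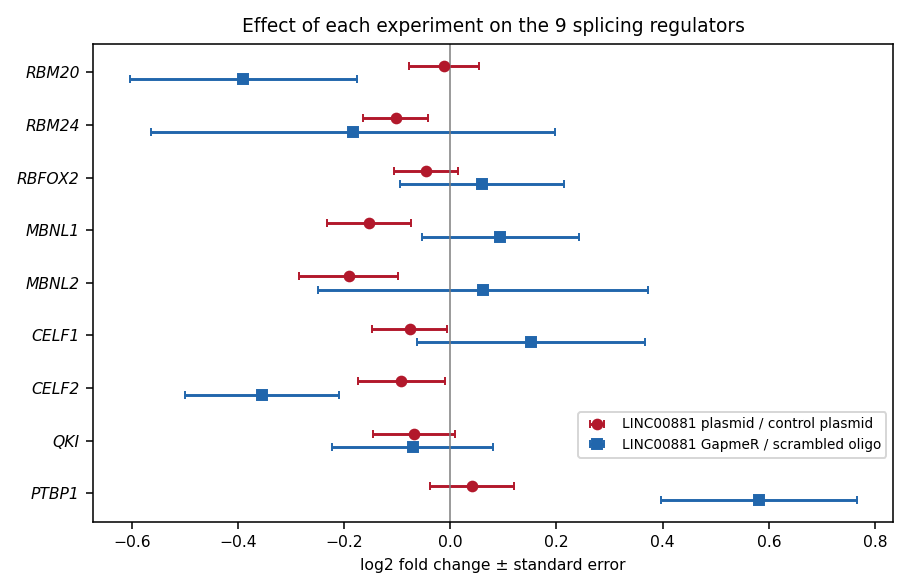
Log2 fold change ± standard error (horizontal axis) of the 9 splicing regulators with LINC00881 plasmid against control plasmid (circles) and with LINC00881 GapmeR against scrambled oligonucleotide (squares). The overexpression values lie between -0.19 and 0.04, while with knockdown PTBP1 (0.58), RBM20 (-0.39) and CELF2 (-0.36) lie farthest from 0.

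The effects of overexpression and knockdown differed at the unadjusted cutoff for PTBP1 alone. The difference, overexpression effect minus knockdown effect, was -0.55 for PTBP1 (SE 0.20, unadjusted p = 0.014, adjusted p = 0.294, edgeR). Among all genes tested, 11.1% passed that cutoff. For RBM20 the difference was 0.37 (SE 0.22, unadjusted p = 0.116) and for CELF2 0.26 (SE 0.17, unadjusted p = 0.158). In CELF2 both log2 fold changes were negative, and in PTBP1 the overexpression value was near 0.

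The sets of knockdown libraries gave opposite values for RBM24. This regulator of muscle exons stood at 99.3 and 222 CPM with LINC00881 GapmeR in the second set, against 90.6 and 101 CPM with scrambled oligonucleotide. In the first set it stood at 79.6 and 92.8 CPM with LINC00881 GapmeR, against 228 and 142 CPM with scrambled oligonucleotide. In the second set the groups overlapped and replicate 4 of the GapmeR stood far above the rest, whereas in the first both GapmeR libraries were below both controls. The log2 fold change was 0.78 (SE 0.46) in the second set and -1.09 (SE 0.26) in the first, which over both sets came to -0.18 (SE 0.38, unadjusted p = 0.642). The difference between the sets, second minus first, was 1.85 (SE 0.49, unadjusted p = 0.0052, adjusted p = 0.067, edgeR). It was 1.16 without replicate 4 of the GapmeR, still past the unadjusted cutoff, and no longer passed it without replicate 1 (1.77) or replicate 2 (1.98) of the GapmeR or with limma-voom (1.73). RBM24 lies on chromosome 6 from 17281346 to 17293875 on the plus strand.

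CELF2 also differed between the sets, with a log2 fold change of -0.11 (SE 0.08) in the second and -0.61 (SE 0.15) in the first. The difference was 0.48 (SE 0.15, unadjusted p = 0.013, adjusted p = 0.108, edgeR). The scrambled oligonucleotide controls of CELF2 averaged 173 CPM in each set, while the GapmeR libraries averaged 157 CPM in the second and 113 CPM in the first. Without replicate 3 of scrambled oligonucleotide the difference missed the cutoff (0.47), as it did with an offset on gene length and GC content (0.29). Differences between the sets were common, with 22.7% of all genes past the unadjusted cutoff and 5.67% after adjustment. Cardiomyocyte markers moved with the sets as well. Their summed level averaged 16340 CPM with LINC00881 GapmeR in the second set against 16097 CPM with scrambled oligonucleotide, and 12087 CPM with LINC00881 GapmeR in the first set against 19258 CPM with scrambled oligonucleotide. LINC00881 fell in both, by 1.38 on the log2 scale in the second and by 2.85 in the first. With LINC00881 GapmeR it stood at 19.7 and 21.8 CPM in the second set and at 11.3 and 26.7 CPM in the first. With scrambled oligonucleotide it stood at 54.9 and 54.8 CPM in the second and at 126 and 149 CPM in the first. In the level of LINC00881, the sets thus differed mainly in their controls. The part of the markers and of the LINC00881 levels in the differences for RBM24 and CELF2 was not tested.

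**Figure D3:**
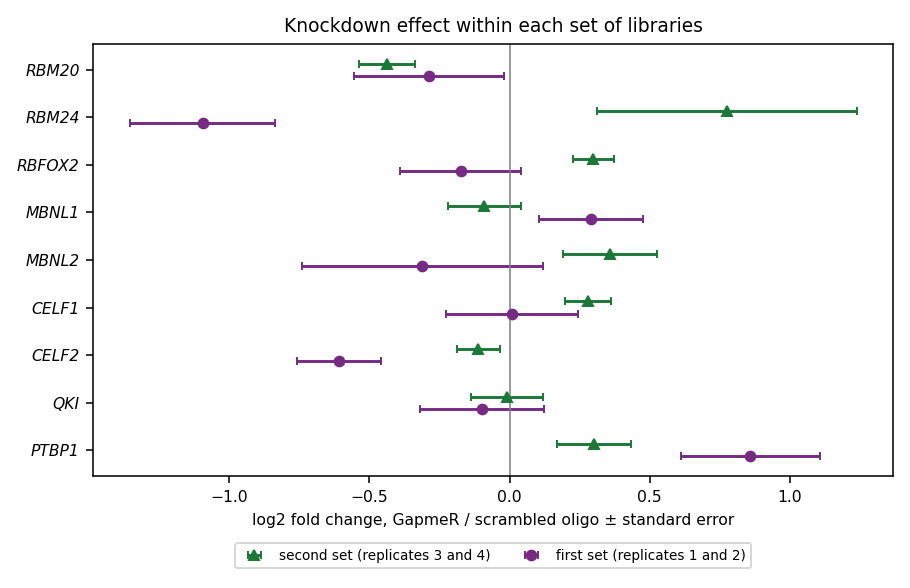
Log2 fold change ± standard error (horizontal axis) with LINC00881 GapmeR against scrambled oligonucleotide for the 9 splicing regulators, fitted within the second set (triangles, replicates 3 and 4 of each group) and within the first set (circles, replicates 1 and 2). RBM24 lies at 0.78 in the second set and -1.09 in the first, while PTBP1 (0.30 in the second, 0.86 in the first) and RBM20 (-0.44 in the second, -0.29 in the first) keep their direction.

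The order of the members by level was not the same in the 2 experiments. Levels between genes are given per kilobase of annotated exon (CPM per kb). With control plasmid RBM24 led at 82.6 ± 2.87 CPM per kb, followed by RBM20 (43.6 ± 2.98), QKI (42.8 ± 4.12) and RBFOX2 (41.6 ± 0.94), with overlapping ranges among these 3 neighbors. CELF2 (30.2 ± 3.78) and CELF1 (23.6 ± 1.92) came after them with overlapping ranges, and MBNL1 (9.16 ± 1.08), MBNL2 (7.17 ± 0.94) and PTBP1 (6.14 ± 0.51) were lowest, with overlap between the muscleblind genes alone (SD, n = 4 libraries). With LINC00881 plasmid the order was the same except that PTBP1 and MBNL2, with overlapping ranges, exchanged places. With scrambled oligonucleotide RBM24 again led at 40.7 ± 18.1 CPM per kb, ahead of RBFOX2 (23.6 ± 1.03), CELF2 (15.8 ± 0.15), CELF1 (13.9 ± 2.08) and RBM20 (10.1 ± 2.18). QKI (5.65 ± 0.70), MBNL1 (4.36 ± 0.22), PTBP1 (3.79 ± 0.31) and MBNL2 (3.37 ± 0.30) followed. Among neighbors in this group, the ranges of CELF2 and CELF1, of CELF1 and RBM20, and of PTBP1 and MBNL2 overlapped. With LINC00881 GapmeR RBM24 stood at 35.8 ± 19.2, RBFOX2 at 24.6 ± 5.01, CELF1 at 15.5 ± 4.40, CELF2 at 12.3 ± 2.40 and RBM20 at 7.73 ± 1.75 CPM per kb, and of all neighbors here only CELF2 and RBM20 did not overlap. PTBP1, at 5.67 ± 1.32 CPM per kb, came before QKI (5.38 ± 0.89) in these libraries, with overlapping ranges, and after MBNL1 in those with scrambled oligonucleotide.

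On a common scale of all 16 libraries, the controls of the 2 experiments differed most in QKI and RBM20. QKI averaged 704 CPM with control plasmid and 103 CPM with scrambled oligonucleotide, a ratio of 6.85, and RBM20 averaged 337 and 86.6 CPM, a ratio of 3.89. For the other 7 members the ratio lay between 1.47 (PTBP1) and 1.93 (MBNL2), and for LINC00881 it was 0.99. The experiments also differed in depth and in the share of counts on mitochondrial ribosomal RNA (0.84% to 1.14% in the overexpression libraries, 13.3% to 17.3% in the knockdown libraries), so transfection, library and culture cannot be told apart in these ratios.

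Paralogs and relatives of the 9 members (17 genes in all, of which 12 were tested with overexpression and 13 with knockdown) gave 2 lower calls and no higher one in each experiment at the unadjusted cutoff. Among all genes tested, 6.23% were lower with overexpression and 4.15% with knockdown. With overexpression these were ZNF638, a zinc finger protein related to RBM20, and PTBP2, the PTBP1 paralog that rises in many cells when PTBP1 is low. ZNF638 stood at 255 to 259 CPM with LINC00881 plasmid and at 269 to 311 CPM with control plasmid (log2 fold change -0.15, SE 0.06). It was lower with knockdown as well, again with groups that did not overlap. That difference did not pass the cutoff (-0.28, SE 0.13, unadjusted p = 0.059, edgeR). PTBP2, named after its values were seen because its groups overlapped, stood at 54.0 to 62.3 CPM with LINC00881 plasmid and at 57.2 to 74.6 CPM with control plasmid (-0.18, SE 0.08). With knockdown, where PTBP1 was higher, PTBP2 stood at 33.6 to 48.9 CPM with LINC00881 GapmeR and at 33.3 to 51.9 CPM with scrambled oligonucleotide. The 2 lower calls with knockdown were KHDRBS1, a STAR family relative of QKI, and RBPMS, a splicing regulator of smooth and cardiac muscle. KHDRBS1 stood at 90.7 to 141 CPM with LINC00881 GapmeR and at 150.9 to 183 CPM with scrambled oligonucleotide (-0.40, SE 0.15). RBPMS stood at 101 to 135 CPM with LINC00881 GapmeR and at 138 to 159 CPM with scrambled oligonucleotide (-0.29, SE 0.12). The median of the paralogs was 0.02 with overexpression and -0.24 with knockdown, and none passed after adjustment. CELF3, CELF5, CELF6 and RBFOX3 had too few reads to be tested in either experiment, and CELF4 with overexpression. The list of paralogs was chosen with earlier results of these data known.

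Of the listed transcripts that these proteins splice, those past the cutoff were mostly higher with overexpression and lower with knockdown. The list was chosen with earlier results of these data known, so its counts and medians are no independent test. It holds CACNA1C, LDB3 and RYR2, which the study named as targets of LINC00881 from these libraries. Of 29 such transcripts, 28 were tested with overexpression, where 6 were higher and 1 was lower at the unadjusted cutoff, and 29 with knockdown, where 1 was higher and 8 were lower. Among all genes tested, 5.87% were higher and 6.23% lower with overexpression, and 4.2% were higher and 4.15% lower with knockdown. Their median log2 fold change was 0.10 with overexpression and -0.35 with knockdown, beside 0.00 and -0.01 over all genes tested. None passed after adjustment in either experiment with edgeR. These are total counts per gene, so they do not say which exons were used, and 2 of the 29, TNNT2 and ACTN2, are also among the cardiomyocyte markers.

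CACNA1C, LDB3 and MYOM1 were called in both experiments with non-overlapping groups, higher with overexpression and lower with knockdown. CACNA1C, the pore subunit of the L-type calcium channel and a target of RBM20, RBFOX proteins and PTBP1, averaged 128 ± 3.88 CPM with LINC00881 plasmid and 99.2 ± 11.2 CPM with control plasmid. It averaged 16.8 ± 6.20 CPM with LINC00881 GapmeR and 37.8 ± 3.42 CPM with scrambled oligonucleotide (SD, n = 4 libraries each). The log2 fold changes were 0.36 (SE 0.08) with overexpression and -1.17 (SE 0.27) with knockdown. LDB3, a Z-disc protein whose exons RBM20 and muscleblind proteins choose, had log2 fold changes of 0.17 (SE 0.07) and -0.52 (SE 0.14). MYOM1, which crosslinks thick filaments in the M-band, had log2 fold changes of 0.14 (SE 0.06) and -0.66 (SE 0.20). Within the sets, CACNA1C stood at -0.65 in the second and -1.80 in the first. LDB3 stood at -0.23 in the second and -0.79 in the first, and MYOM1 at -0.31 in the second and -1.05 in the first. All passed the unadjusted cutoff, as did 5034 of 19258 genes within the second set and 3376 of 17992 within the first.

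RYR2, through which calcium leaves the sarcoplasmic reticulum, was higher with overexpression at 739 to 799 CPM with LINC00881 plasmid against 593 to 733 CPM with control plasmid (log2 fold change 0.17, SE 0.07). With knockdown it was lower but its groups overlapped, at 25.6 to 98.7 CPM with LINC00881 GapmeR against 82.3 to 211 CPM with scrambled oligonucleotide (-1.10, SE 0.44). The log2 fold changes were -1.09 in the second set and -1.06 in the first. ACTN1, a nonmuscle alpha-actinin whose exons PTBP1 regulates, was higher with overexpression (0.21, SE 0.07), and FXR1, an RNA-binding protein with muscle-specific exons, was lower (-0.13, SE 0.06). With knockdown, DTNA (-1.09, SE 0.15), CAPZB (-0.60, SE 0.18) and PDLIM5 (-0.45, SE 0.15) fell with non-overlapping groups. DTNA encodes the dystrophin partner alpha-dystrobrevin, CAPZB a subunit of the actin capping protein and PDLIM5 a Z-disc protein. PDLIM3, another Z-disc protein and RBM20 target, was the only one to rise, at 30.6 to 58.5 CPM with LINC00881 GapmeR against 12.9 to 22.8 CPM with scrambled oligonucleotide (1.13, SE 0.26). The other transcripts past the cutoff, with groups that overlapped, were TNNT2 with overexpression and RYR2 and MLIP with knockdown.

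TTN, the titin transcript and best known target of RBM20, did not pass in either experiment as a whole. It averaged 9127 ± 1008 CPM with LINC00881 plasmid and 7976 ± 1834 CPM with control plasmid, and 2395 ± 246 CPM with LINC00881 GapmeR and 3345 ± 1514 CPM with scrambled oligonucleotide (SD, n = 4 libraries each). Its log2 fold change with knockdown was -0.85 within the second set (SE 0.05, adjusted p = 0.00020, edgeR) and 0.15 within the first (SE 0.14). The difference between the sets, second minus first, was -1.03 (SE 0.15, adjusted p = 0.0099, edgeR). Of the 29 listed transcripts, 6 passed after adjustment for that difference, TTN, DMD, FLNA, LMO7, TPM1 and TRDN. Among all genes tested, 5.67% did. Within the second set 2050 of 19258 genes passed after adjustment. Of the exonic bases of TTN, 15.5% overlap genes on the other strand, so its counts may hold reads of the antisense transcript TTN-AS1.

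**Figure D4:**
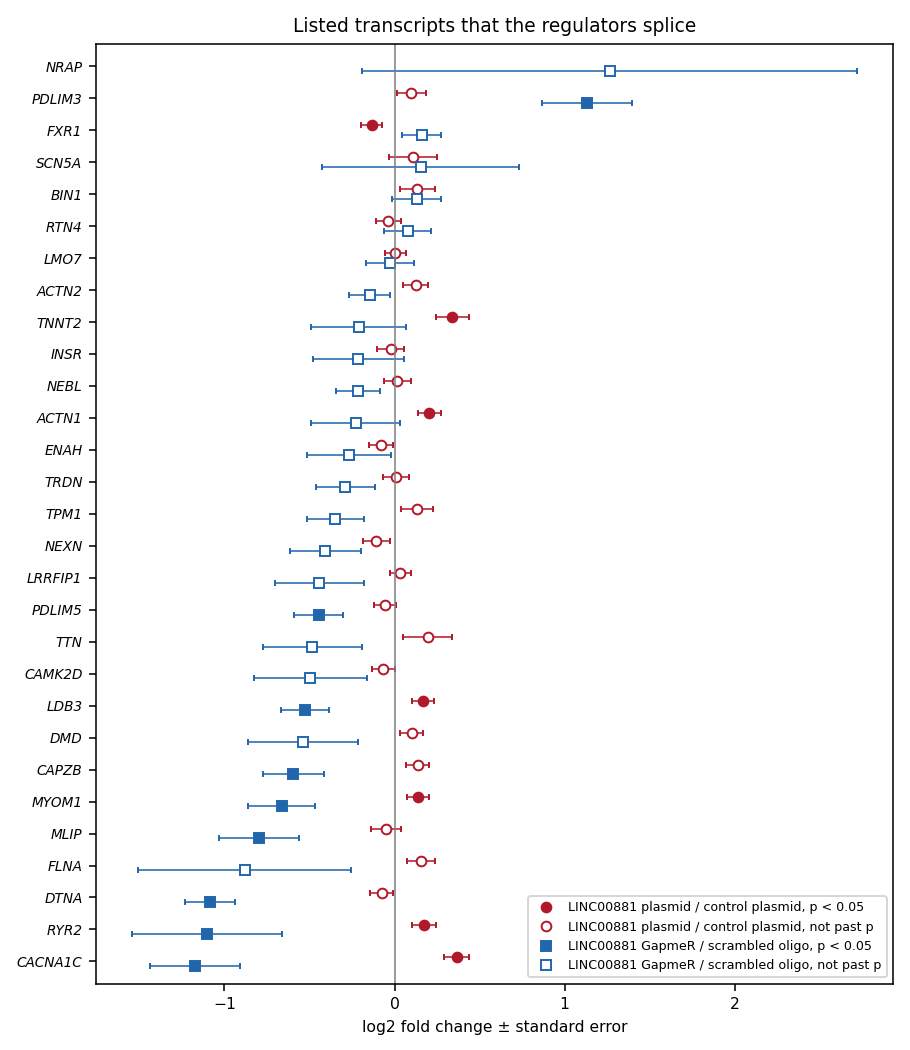
Log2 fold change ± standard error (horizontal axis) of the 29 listed transcripts that these regulators splice, with LINC00881 plasmid against control plasmid (circles) and with LINC00881 GapmeR against scrambled oligonucleotide (squares). Filled symbols passed an unadjusted p under 0.05, 7 with overexpression and 9 with knockdown, and the transcripts are ordered by the knockdown value, CACNA1C (-1.17) at the bottom.

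Markers of other cell types were measured beside these values. The 10 fibroblast markers summed to 808 to 863 CPM with LINC00881 plasmid against 723 to 794 CPM with control plasmid, and to 230 to 360 CPM with LINC00881 GapmeR against 222 to 256 CPM with scrambled oligonucleotide. The 7 smooth muscle markers summed to 1314 to 1395 CPM with LINC00881 plasmid against 1146 to 1301 CPM with control plasmid, and to 361 to 1367 CPM with LINC00881 GapmeR against 581.7 to 1111 CPM with scrambled oligonucleotide. With the GapmeR the smooth muscle sum averaged 1344 CPM in the second set and 378 CPM in the first. Neural and pluripotency markers summed to at most 13.9 CPM and 6.12 CPM in any library, with NANOG at 0 in all overexpression libraries, and the endothelial marker VWF was at 0 in the 4 libraries with LINC00881 plasmid. The 5 endothelial markers summed to 34.1 to 238 CPM over all libraries and the 5 hepatic markers to 57.5 to 307 CPM, the highest hepatic value in a control plasmid library. Nearly all of the endothelial sum was KDR, on average 228 of 229 CPM with LINC00881 plasmid and 68.4 of 69.1 CPM with LINC00881 GapmeR. PECAM1 and CDH5 averaged at most 0.23 CPM in any group. The part of all these markers in the values of the splicing regulators was not tested.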

How the data were processed

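RNA-Seq counts of 16 hiPSC-CM libraries, 4 per group, were analyzed. Groups and replicate numbers came from the submitters' labels, and all columns of the table belonged to the study. The authors aligned the paired reads by STAR 2.7.3a, and the deposited values are raw counts per gene symbol, counted without strand and not normalized. The authors' own fold changes were not used. Reads from a stranded total RNA kit were counted without strand, so overlapping genes on opposite strands cannot be separated.

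Counts were tested with edgeR 4.0.16 in R 4.3.3 (quasi-likelihood F-test, 2-sided, TMM scaling, filterByExpr, robust), each experiment against its own control, over all genes. Calls are at p under 0.05 unadjusted, the study's cutoff, and after Benjamini-Hochberg adjustment. The difference between the effects was fitted on all 16 libraries, and the difference between the knockdown sets as an interaction. CPM are TMM-scaled within an experiment. The p-values measure the spread between these libraries, since the labels do not say what a replicate number stands for. No pair of replicates agreed within sampling noise. The code was tested on simulated counts.

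Positions, exon lengths and GC content came from GENCODE release 29 (GRCh38), which matched 67.7% of symbols, and promoters from RefSeq (GRCh38.p14). The 9 members and the lists of 17 paralogs and 29 spliced transcripts were chosen with earlier results of these data known, and some further transcripts are not reported here. All 9 members are given, and, of the lists, genes at p under 0.05 with groups that did not overlap. Exceptions are marked or lie outside that rule (PTBP2, TNNT2, MLIP and TTN, chosen after their values were seen).

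The alternatives were DESeq2 1.42.0 or its size factors in edgeR, limma-voom (limma 3.58.1) with sample weights, all genes with at least 1 count, a mean of at least 100 counts, 1 fit of all 16 libraries, a replicate block, a set term, fits within sets, offsets on gene length or on length and GC content (splines, 5 degrees of freedom), and leaving out each library in turn.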

Additional observations from a re-analysis of the deposited data

Results flagged for a closer look

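Of 36 combinations of a member and a group, 4 held a library whose gap to its nearest neighbor took up more of the group's range than the 95% critical value of Dixon's test allows, where about 1 in 20 groups is marked by chance. QKI (850 CPM) and MBNL2 (42.1 CPM) were highest in replicate 3 of control plasmid, the library that stood apart from the other overexpression libraries. RBM24 stood at 222 CPM in replicate 4 of LINC00881 GapmeR, against 79.6 to 99.3 CPM in the other 3. MBNL2 stood at 18.7 CPM in replicate 4 of scrambled oligonucleotide, against 15.6 to 16.0 CPM in the other 3.

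The knockdown effect on RBM24 differed between the sets by 1.85 on the log2 scale (second minus first, adjusted p = 0.067, edgeR), and that on CELF2 by 0.48 (adjusted p = 0.108, edgeR). For PTBP1 the effects of overexpression and knockdown differed by -0.55 (overexpression minus knockdown, adjusted p = 0.294, edgeR). None of the 3 passed after adjustment over all genes.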

How the results depend on the processing

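PTBP1 with knockdown kept its direction and its side of the unadjusted cutoff under every alternative (log2 fold change 0.30 to 0.86), as did its difference from the overexpression effect. Members called with overexpression (none at first) were 1 with DESeq2 size factors, 1 with the replicate block, 2 with the length offset and 0 to 4 with a library left out. Members called with knockdown (PTBP1 and CELF2) were 1 with limma-voom, 1 with the length offset, 4 within the second set, 3 each within the first set, with a set term and in 1 fit of all 16 libraries, and 1 to 2 with a library left out. With the length and GC offset 2 were called, PTBP1 and CELF1 in place of CELF2. Over all genes 1514 of 18127 passed with knockdown at first. Within the second set 5034 of 19258 passed, within the first 3376 of 17992 and with a set term 2504 of 18127. In 1 fit of all 16 libraries 3342 of 17782 genes passed. Members whose effects differed between the experiments (PTBP1) were 3 with limma-voom, 2 with the replicate block, 3 with the length offset, 2 with the length and GC offset and 1 to 3 with a library left out. Members that differed between the sets (RBM24 and CELF2) were 3 with all genes of at least 1 count, with a mean of at least 100 counts and with the length offset, and 1 to 4 with a library left out.

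The signs that turned belonged to values that did not pass the cutoff. For PTBP1 with overexpression they were -0.027 with limma-voom and -0.090 with the length and GC offset. With knockdown, limma-voom gave 0.010 for RBM24 and -0.054 for MBNL1, the second set 0.78 for RBM24 and -0.090 for MBNL1, the first set -0.17 for RBFOX2 and -0.31 for MBNL2, the replicate block -0.042 for MBNL2, and the offsets 0.21 (length) and 0.20 (length and GC) for QKI. For the difference between the experiments, limma-voom gave -0.11 for RBM24 and 0.097 for QKI, a mean of at least 100 counts 0.013 and the replicate block 0.0017 for QKI. For the difference between the sets, the length and GC offset gave -0.11 for QKI. With a library left out, overexpression values ran over -0.061 to 0.018 for RBM20 and -0.12 to 0.0025 for QKI. Knockdown values ran over -0.63 to 0.15 for RBM24, -0.017 to 0.19 for RBFOX2, -0.11 to 0.31 for MBNL2 and -0.17 to 0.015 for QKI. Differences between the experiments ran over -0.26 to 0.51 for RBM24 and -0.095 to 0.068 for QKI, and differences between the sets over -0.45 to 0.23 for RBM20, -0.0036 to 0.61 for CELF1 and -0.11 to 0.32 for QKI. The cause of these changes was not tested.

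Same-numbered libraries correlated at 0.11, 0.080, 0.17 and 0.091 with knockdown and at 0.048, 0.13, -0.092 and 0.035 with overexpression, so the numbers were not taken to pair them. With the replicate block 1920 genes passed unadjusted with overexpression and 1890 with knockdown, beside 1737 and 1514 without it. After adjustment, DESeq2 called 57 and 194 genes and limma-voom 217 and 0, where edgeR called 1 and 0. MBNL2, at 244 to 876 reads in the GapmeR libraries, was the member with the fewest reads.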
